A study of Caenorhabditis elegans with 15 samples.

Results

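The 5 libraries of the fndc-1(rny14) single mutant of Caenorhabditis elegans were set against the other 10 of the 15 libraries of the study, taken as one group. Those 10 were 5 libraries of the double mutant atfs-1(tm4525);fndc-1(rny14) and 5 of the wild-type strain N2. The members were chosen by strain label alone, and no measured value entered the choice. All libraries held RNA from whole worms, harvested at day 1 of adulthood from synchronised populations grown without stress. The rny14 allele of fndc-1 is carried by the single and the double mutant, and no atfs-1 single mutant is among the samples. A gene that set the fndc-1 mutant apart from both other strains was therefore one whose level the double mutant did not share, although it carries the same fndc-1 allele. An effect of that allele that needs intact atfs-1, and a difference between the stocks in some other part of the genome, cannot be told apart from these strains. Each genotype is 1 strain, and outcrossing is not given in the sources used here. The labels do not say that samples of a strain came from separate cultures, so p-values measure the scatter among the samples as deposited, part of which may be technical.

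FNDC-1 is the worm counterpart of the mammalian mitochondrial outer membrane protein FUNDC1, a receptor that ties mitochondria to the autophagy machinery so that they can be degraded, a process called mitophagy. In C. elegans it is known for the removal of paternal mitochondria after fertilisation. ATFS-1 is a transcription factor that is normally imported into mitochondria and, when import fails, moves to the nucleus and turns on chaperone genes such as hsp-6 and hsp-60, the mitochondrial unfolded protein response. Laboratory stocks can also differ from each other at sites other than the named alleles.

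The libraries held 46984106 to 61921123 counts each, and 15032 of 20191 genes had enough counts to be tested. Levels are given as CPM, the counts of a gene per 1000000 counts of its library, with library sizes corrected by TMM factors. Within the fndc-1 mutant, libraries 4 and 5 stood apart from libraries 1 to 3: hsp-6 had 808 and 808 CPM in libraries 4 and 5, against 577 to 612 CPM in the others. A chi-square of counts per gene was 8.07 to 18.95 between libraries 1 to 3 and 16.37 between 4 and 5. Across these sets it was 60.5 to 89.12. The tests treated the 5 libraries as separate replicates, and whether they were independent was not tested. Double mutant library 2 stood apart too, with 23640 CPM summed over the intestine markers, where the other 14 libraries had at least 58830 CPM. Summed sperm markers were high in double mutant library 4 (1174 CPM) and in wild-type libraries 2 and 4 (392 and 315.2 CPM, against 53.6 to 61.5 CPM in the other wild-type libraries). In the fndc-1 mutant they were highest in library 4 (589.5 CPM, against 128.6 to 301.5 CPM in the others). Counts that rest on these libraries are given below with and without them.

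As a check on the labels, the targeted gene fndc-1 (II, 11236624 to 11237325, genome build WBcel235) had 7.38, 7.52, 7.26, 7.26 and 7.53 CPM in the 5 fndc-1 mutant libraries. It had 7.82, 10.2, 7.04, 7.35 and 7.37 CPM in the double mutant and 47.2, 40.3, 40.4, 39.8 and 36.8 CPM in wild type. Both strains with the allele overlapped, and both lay below every wild-type library, so the targeted gene did not pass the pooled comparison (log2 -1.72, SE 0.544, adjusted p = 0.3458; every adjusted p here is from edgeR's quasi-likelihood test with Benjamini-Hochberg adjustment unless another tool is named). It did pass with DESeq2 (adjusted p = 0.04245) and when the other strains entered as separate means, weighted equally (adjusted p = 8.271e-07). The partner gene atfs-1 and the chaperones hsp-6 and hsp-60 did not pass the pooled test (adjusted p = 0.9107, 0.9242 and 0.7981). The log2 changes of the fndc-1 mutant over both other strains were 0.06 for atfs-1, -0.09 for hsp-6 and 0.21 for hsp-60. For atfs-1 the pooled value hides a difference between the other strains. It had 68.35 to 79.99 CPM in the double mutant, below the 87.78 to 99.15 CPM of the fndc-1 mutant and the 96.8 to 109.8 CPM of wild type. In separate tests the double mutant was below wild type (log2 -0.46, adjusted p = 0.0004443). The fndc-1 mutant was above the double mutant (log2 0.31, adjusted p = 0.01558).

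In the main edgeR comparison, few genes set the fndc-1 mutant apart from both other strains. Almost as many of them lay at the ends of 2 chromosomes as in all the rest of the genome. The pooled comparison called 67 of 15032 genes (0.446%) at an adjusted p under 0.05, of which 27 (0.180%) were higher and 40 (0.266%) lower in the fndc-1 mutant. The median log2 change over all genes tested was -0.02. Of the 67, 18 lay in a stretch at the left end of chromosome X, all lower, and 14 in a stretch at the right end of chromosome I, all higher. Together these 32 were 47.8% of the genes called, from stretches that hold 37 of the 15032 genes tested. Each stretch was bounded by its first and last gene called, so that this density follows in part from the bounds. The other 35 genes, 13 higher and 22 lower, were spread over chromosomes I to V. The share away from the ends depended on the setting. It was 117 of 150 genes called with DESeq2, 71 of 103 with a mean of 3 strain means and 120 of 154 without double mutant libraries 2 and 4. It was 21 of 53 without fndc-1 library 2.

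In separate tests, 61 genes (0.406%) differed in the same direction from the double mutant and from wild type, 23 higher (0.153%) and 38 lower (0.253%) in the fndc-1 mutant, and 60 of them were among the 67. The comparisons use the same fndc-1 libraries. The fndc-1 mutant differed from the double mutant alone at 147 genes (0.978%), 36 higher (0.239%) and 111 lower (0.738%). It differed from wild type alone at 281 genes (1.87%), 178 higher (1.18%) and 103 lower (0.685%). Genes whose 5 fndc-1 libraries lay wholly above or below the other 10 numbered 56 (0.373%) above and 73 (0.486%) below. Of the 67 genes called, 25 higher and 39 lower were of this kind, so 3 of the 67 had overlapping libraries. Without fndc-1 libraries 4 and 5 the pooled count was 72, and without double mutant libraries 2 and 4 it was 154.

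Counted in 203 windows of 500 kb, 176 windows held no gene called, 15 held 1, 7 held 2 and 3 held 3. No window held 4, and 2 windows held 5 or more. Those were the first window of X, with 18 of 45 tested genes called (40%), and the window from 15000001 on chromosome I, with 11 of 14 (78.6%). The window to its left on I held the other 3 genes of that stretch.

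**Figure D1:**
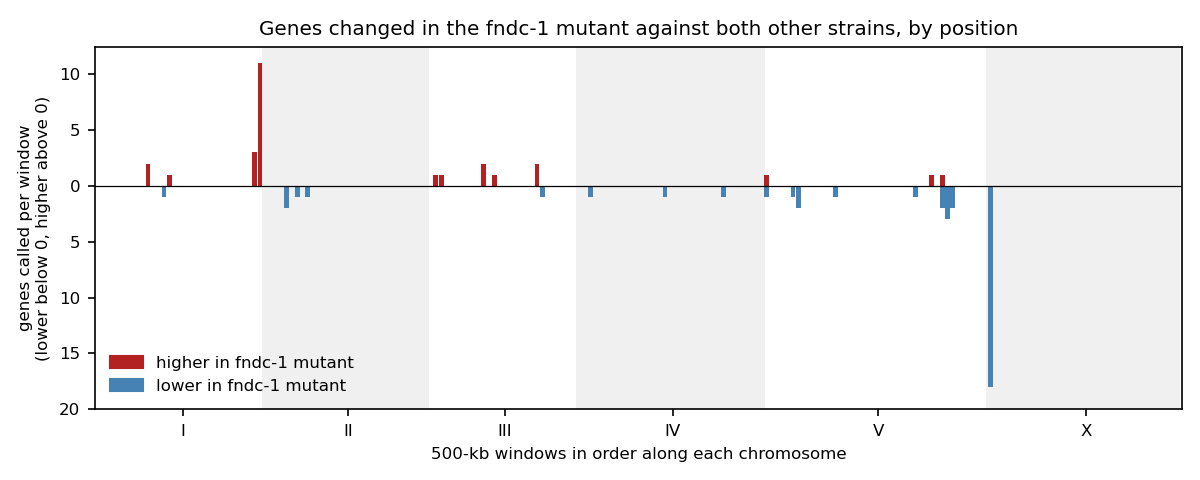
Number of genes called in each 500-kb window along chromosomes I to X, for the fndc-1 mutant against both other strains pooled; red bars above 0 count genes higher and blue bars below 0 count genes lower in the fndc-1 mutant. The bar of 18 lower genes at the left end of X and the bar of 11 higher genes at the right end of I stand above every other window, none of which holds more than 3.

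At the left end of X, 17 of 20 tested genes were at or near 0 in the fndc-1 mutant and had RNA in both other strains. The stretch runs from Y73B3A.1 to Y47C4A.1 (X, 42632 to 286216, WBcel235), 243.6 kb, and Y73B3A.1 is the first gene of the table on X. It holds 31 genes of the table, and all 18 genes called there were lower in the fndc-1 mutant. In total 19 of the 31 genes, 12 of them among the 18 called, had no count in any of the 5 fndc-1 libraries. The 11 genes too low to be tested held 9 counts in the fndc-1 libraries together, against 247 in the other 10.

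Y73B3A.1 (42632 to 46933), the gene with the highest counts of the stretch, had 0.102, 0.0601, 0.145, 0.141 and 0.155 CPM in the fndc-1 mutant. It had 100.2, 42.4, 118.9, 80.1 and 94.2 CPM in the double mutant and 85.7, 102.3, 111.0, 90.8 and 112.1 CPM in wild type. The fndc-1 libraries lay far below all others, and the double mutant and wild type overlapped (log2 -9.57, SE 0.322, adjusted p = 4.681e-11). In counts, 31 reads fell on Y73B3A.1 in the 5 fndc-1 libraries, against 50057 in the other 10.

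Y73B3A.4 (95614 to 104777) had no count in any fndc-1 library and 12062 in the others, so with a floor of 3 counts over the 5 libraries it was at least 1919-fold lower in the fndc-1 mutant. Its levels were 25.5, 8.88, 26.7, 22.1 and 24.2 CPM in the double mutant and 22.6, 22.4, 24.2, 22.95 and 26.2 CPM in wild type. Double mutant library 2 was low for this gene, and without it the double mutant and wild type overlapped closely. By the same floor, which covers counting error only, T08D2.8 was at least 546.6-fold lower, Y73B3A.20 at least 406.1-fold and T08D2.7 at least 221.1-fold lower in the fndc-1 mutant. The SET domain gene set-28, of a family that includes histone methyltransferases, had 0 counts against 89, at least 14.2-fold lower (adjusted p = 0.01213). Its call was lost without fndc-1 libraries 4 and 5 (adjusted p = 0.06919) and with the replicate number as a block (adjusted p = 0.1345).

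T08D2.6 had 2 counts against 3073, or 0.136% of the CPM of the other strains (95% exact interval 0.0165% to 0.493%). T08D2.1 had 1 count against 1279, or 0.164% (interval 0.00415% to 0.914%). T08D2.5 had 6 counts in the fndc-1 mutant against 1025 (log2 -6.19, adjusted p = 4.985e-06). Further in, 6 genes of the AC8 clone form 3 pairs of copies that start 9416 bases apart: AC8.4 with AC8.11, AC8.3 with AC8.10, and AC8.7 with AC8.12. All 6 had 0 counts in the fndc-1 mutant, and in the other strains the members of a pair had nearly equal counts (514 and 519, 723 and 714, 279 and 313). Reads of such copies may be shared between them, so their separate values are uncertain. The last gene of the stretch, Y47C4A.1 (279717 to 286216), had 0 counts against 420, at least 66.8-fold lower.

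Of the tested genes inside the stretch, 3 kept more than traces of RNA in the fndc-1 mutant. The pseudogene Y73B3A.18 (59366 to 60750) had 5.94, 5.61, 7.06, 8.21 and 7.61 CPM in the fndc-1 mutant. It had 20.97, 23.7, 22.7, 19.3 and 20.7 CPM in the double mutant and 13.6, 13.9, 18.8, 13.4 and 17.3 CPM in wild type. Its fndc-1 libraries did not overlap the others, yet it fell by 1.42 on the log2 scale, the smallest change among the 18. Y73B3A.11 had 109 counts against 346 (log2 -0.61, adjusted p = 0.6412). T08D2.4, which lies within the span of T08D2.5, had 205 against 442 (log2 -0.04, adjusted p = 0.9649). Reads within the overlap of these genes, which lie on the same strand, cannot be assigned to either gene, so both counts are uncertain.

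**Figure D2:**
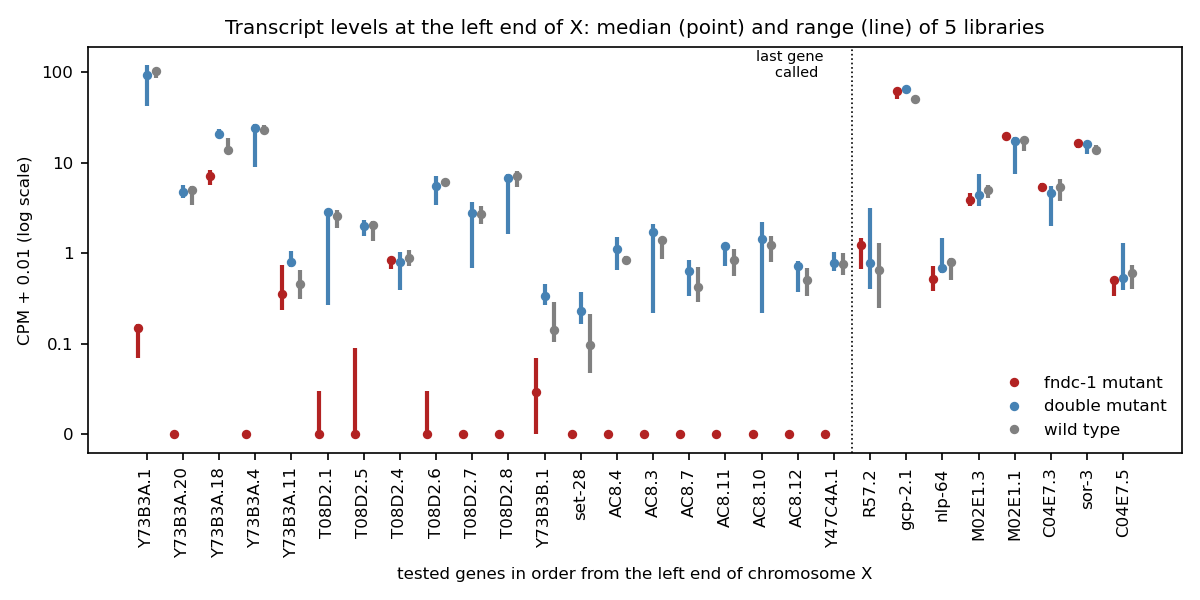
Level of each tested gene from the left end of X inward in the fndc-1 mutant (red), the double mutant (blue) and wild type (grey), as the median (point) and range (line) of 5 libraries, in CPM plus 0.01 on a log axis. The red points lie at or near 0 up to the dotted line after Y47C4A.1, except for Y73B3A.18, Y73B3A.11 and T08D2.4, and lie among the other strains from R57.2 on.

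The difference ended between Y47C4A.1 and the next tested gene, R57.2, which starts at 297234 (log2 0.13). The gene after it, gcp-2.1, a homologue of glutamate carboxypeptidase, had 50.96 to 65.2 CPM in the fndc-1 mutant, 60.6 to 69.4 CPM in the double mutant and 48.7 to 51.9 CPM in wild type. Its fndc-1 libraries overlapped both other strains (log2 0.02). Over the 25 tested genes from 297234 to 497510, edgeR called 0, with log2 changes of -0.80 to 0.79 and a median of 0.06. At an unadjusted p under 0.05, 1 of the 25 was higher and 0 were lower, and DESeq2 and limma-voom called 0.

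Summed over its 20 tested genes, the left end of X gave 6.795 to 9.966 CPM in the fndc-1 mutant, 91.12 to 204.3 CPM in the double mutant and 148.5 to 189.8 CPM in wild type. The value of 91.12 CPM belonged to double mutant library 2, and the other double mutant libraries had at least 158.7 CPM. The count of 18 genes was 18 or 19 when any 1 library was left out and 16 without fndc-1 libraries 4 and 5. The files hold RNA counts, and DNA copy number was not measured in them.

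At the right end of chromosome I, a run of neighbouring genes had more RNA in the fndc-1 mutant than in both other strains. The stretch runs from ZK909.6 to F31C3.6 (I, 14967301 to 15058994, WBcel235), 91.69 kb, and F31C3.6 is the last gene of the table on that chromosome. It holds 18 genes, of which 17 were tested and 14 called, all higher in the fndc-1 mutant. All 17 tested genes had a positive log2 change, with a median of 1.33, and the 14 called ranged from 0.55 to 1.86.

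The cyclophilin gene cyn-5 (15040474 to 15041274), which encodes a peptidyl-prolyl isomerase, had 1092, 1059, 1026, 890.7 and 906.4 CPM in the fndc-1 mutant. It had 355, 505.9, 363.2, 392.7 and 392.5 CPM in the double mutant and 376.4, 344.6, 313.8, 332.4 and 312.7 CPM in wild type. All fndc-1 libraries lay above all others (log2 1.43, SE 0.101, adjusted p = 2.936e-07). Within the fndc-1 mutant, libraries 4 and 5 were the lowest.

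The zinc transporter gene zipt-1 (15050797 to 15052420), of the ZIP family that carries zinc into the cytosol, had 193.4, 187.2, 185.5, 201.5 and 201.5 CPM in the fndc-1 mutant. It had 98.2, 71.2, 93.8, 83.6 and 86.3 CPM in the double mutant and 102.1, 92.4, 104.5, 101.7 and 102.6 CPM in wild type. The fndc-1 libraries did not overlap the others (log2 1.05, adjusted p = 5.689e-07). The SET domain gene set-10 (15027713 to 15030708) had 20.1 to 23.6 CPM in the fndc-1 mutant, 6.01 to 8.51 CPM in the double mutant and 8.54 to 10.8 CPM in wild type (log2 1.33, adjusted p = 4.508e-06). The gene tep-1, of the thioester-containing protein family, which is related to vertebrate complement factors, had 82.7 to 134.2 CPM in the fndc-1 mutant, 15.0 to 46.9 CPM in the double mutant and 37.1 to 49.7 CPM in wild type (log2 1.49, adjusted p = 0.0009373). The groups did not overlap for either gene.

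psf-2, a subunit of the GINS complex of the replication fork, had 75.8, 79.7, 76.4, 81.8 and 80.4 CPM in the fndc-1 mutant. It had 33.9 to 53.1 CPM in the double mutant and 48.6 to 60.1 CPM in wild type (log2 0.68, adjusted p = 0.0007984). The DNA polymerase epsilon gene pole-1 and the helicase gene dog-1, which lie inside the stretch, were not called (log2 0.30 and 0.37, adjusted p = 0.6783 and 0.2565). dog-1 passed with upper-quartile scaling (adjusted p = 0.03496), without double mutant library 2 (adjusted p = 0.02864) and with both double mutant libraries 2 and 4 left out (adjusted p = 0.02755). F31C3.3 was not called either (log2 0.77, adjusted p = 0.2324). It passed with DESeq2 (adjusted p = 0.0487), without double mutant library 2 (adjusted p = 0.001221) and with both double mutant libraries 2 and 4 left out (adjusted p = 0.00223).

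F33H2.6 had the lowest adjusted p of the stretch, with 136.3, 130.5, 128.3, 119.8 and 115.5 CPM in the fndc-1 mutant. It had 45.9 to 61.7 CPM in the double mutant and 45.2 to 52.4 CPM in wild type, with no overlap (log2 1.34, SE 0.0689, adjusted p = 4.853e-09). F31C3.6, at the very end, had 19.9, 18.9, 19.5, 10.7 and 12.2 CPM in the fndc-1 mutant, 3.72 to 5.42 CPM in the double mutant and 3.32 to 5.75 CPM in wild type (log2 1.86, adjusted p = 4.508e-06). The zinc finger gene klu-1 (log2 1.46), mtd-1 (log2 1.43), F33H2.3 (log2 1.26) and F33H2.2 (log2 1.00) were also called. At the left edge ZK909.6 (14967301 to 14968540) was called (log2 1.55, adjusted p = 0.001473). F31C3.2, with the smallest change called (log2 0.55), lost its call without fndc-1 libraries 4 and 5 (adjusted p = 0.07684).

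F33H2.8 overlapped the others, with 3.23, 4.05, 2.92, 1.00 and 1.51 CPM in the fndc-1 mutant, up to 1.23 CPM in the double mutant and up to 1.15 CPM in wild type (log2 1.75, adjusted p = 0.03707). Libraries 4 and 5 were again the lowest of the fndc-1 mutant. Its call was lost under 14 of the 27 alternatives, with adjusted p up to 0.2121. Neighbouring genes of the stretch overlap at their ends (F33H2.2 with set-10, F31C3.2 with cyn-5, and psf-2 with F31C3.6), so their counts may share reads.

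**Figure D3:**
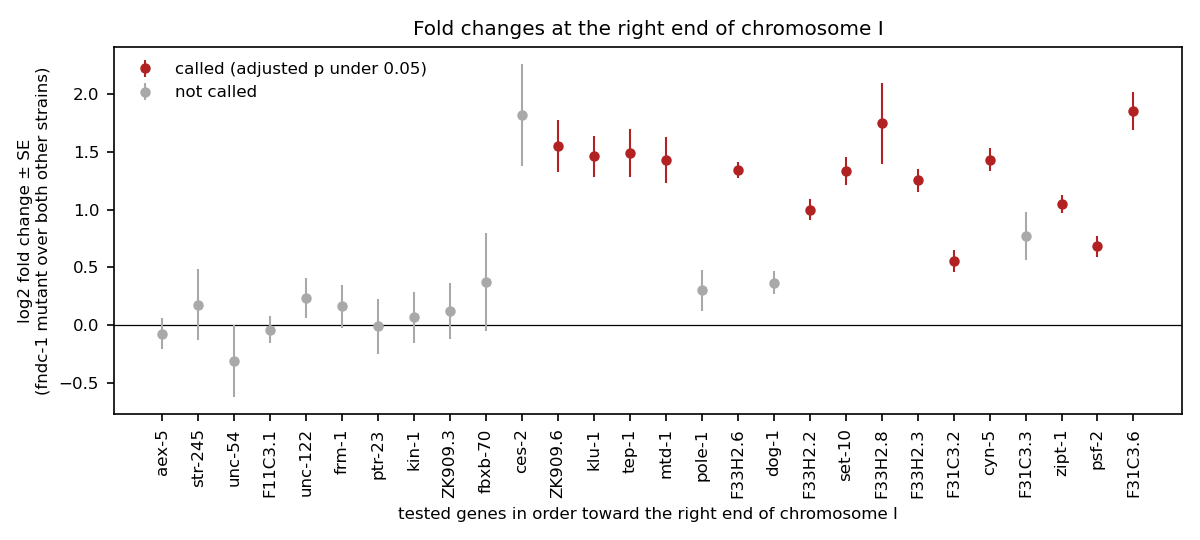
Log2 fold change of the fndc-1 mutant over both other strains pooled, with its standard error, for each tested gene toward the right end of chromosome I; red points passed the test and grey points did not. From ZK909.6 to the last gene, F31C3.6, all points lie above 0, and the 14 red ones lie between 0.55 and 1.86, while the 11 genes to the left range from -0.31 to 1.82.

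For each library, the ratio of each gene to its mean over the double mutant and wild type was taken over all 17 tested genes of the stretch. The median ratio was 2.504, 2.631, 2.585, 2.188 and 2.151 in the fndc-1 mutant, 0.816 to 0.997 in the double mutant and 1.01 to 1.035 in wild type. Libraries 4 and 5 were below the other 3 of the fndc-1 mutant. The summed level of the 17 genes was 2638 to 2757 CPM in the fndc-1 mutant, 1145 to 1415 CPM in the double mutant and 1301 to 1387 CPM in wild type. These are descriptions, since the bounds of the stretch were set by its called genes.

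The left edge was less sharp than on X. The nearest tested gene outside it, ces-2, which encodes a bZIP transcription factor known for the control of cell death in a neuronal lineage, had a log2 change of 1.82 that was not called (SE 0.442, adjusted p = 0.1334). It had 4.13 to 22.03 CPM in the fndc-1 mutant, 1.24 to 9.07 CPM in the double mutant and 1.13 to 4.88 CPM in wild type. It passed with DESeq2 (adjusted p = 0.007463) and without fndc-1 libraries 4 and 5 (adjusted p = 0.03204). ces-2 also passed without double mutant library 2 (adjusted p = 0.03547) and with both double mutant libraries 2 and 4 left out (adjusted p = 0.03276). Over the 11 tested genes from 14850052 to 14965361, edgeR called 0 and limma-voom 0, DESeq2 called 1, and 1 was higher at an unadjusted p under 0.05. Their median log2 change was 0.12. The count of 14 was 13 to 16 when any 1 library was left out.

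Some genes were nearly absent from the fndc-1 mutant. A gene was counted as lost when its highest fndc-1 library was at least 4-fold below the lowest of the other 10, which had at least 1 CPM, and as gained in the reverse case. By this rule 10 genes (0.0665%) were lost and 0 were gained. Of the lost genes, 6 lay in the left end of X (Y73B3A.1, Y73B3A.4, Y73B3A.20, T08D2.5, T08D2.6 and T08D2.8). The other 4 were nhr-131, fbxa-192 and Y102A5C.36 on chromosome V and C08F11.7 on chromosome IV.

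The nuclear hormone receptor gene nhr-131 (V, 494370 to 497297), of the family of ligand-dependent transcription factors that is greatly expanded in nematodes, had 0 counts in all 5 fndc-1 libraries. It had 3.82, 5.07, 4.62, 3.87 and 5.16 CPM in the double mutant and 3.92, 5.38, 3.61, 6.35 and 3.86 CPM in wild type. With 2435 counts in the other strains it was at least 387.4-fold lower in the fndc-1 mutant (adjusted p = 5.738e-09). Its neighbour nhr-106 (V, 489620 to 491432) moved the other way.

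nhr-106 had 7.97, 7.20, 7.82, 5.89 and 5.14 CPM in the fndc-1 mutant. It had 3.37, 4.81, 2.84, 3.66 and 3.74 CPM in the double mutant and 3.24, 3.57, 2.66, 4.06 and 2.96 CPM in wild type. Each fndc-1 library lay above each of the others (log2 0.96, SE 0.145, adjusted p = 0.002139). Between the pair lies str-196, with 4 counts in the fndc-1 mutant against 33, and after nhr-131 lies T01G6.1, with 0 against 26; both were too low to be tested. The nuclear hormone receptor genes next in line, nhr-211, nhr-212, nhr-130, nhr-55 and nhr-99 to the left and nhr-210 to the right, were not called, with log2 changes of -0.17, -0.09, 0.04, 0.02, -0.58 and -0.39. Among all 189 tested members of the nuclear hormone receptor family, edgeR called only nhr-106 higher and only nhr-131 lower. Over all genes, edgeR called 0.180% higher and 0.266% lower. DESeq2 called 4 of the family, beside 150 over all genes.

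On chromosome V, 2 genes of the F-box family, whose members recruit proteins for ubiquitination and which is highly variable in C. elegans, were lower. fbxa-192 (V, 17640672 to 17650527) had 0.468, 0.441, 0.455, 0.650 and 0.466 CPM in the fndc-1 mutant. It had 10.8, 8.95, 9.15, 7.49 and 8.28 CPM in the double mutant and 6.96, 6.10, 6.59, 7.03 and 7.19 CPM in wild type. The groups were far apart (log2 -3.98, SE 0.178, adjusted p = 9.555e-10). fbxa-111 (V, 16947142 to 16949709) had 20 counts in the fndc-1 mutant against 197 in the other 10 libraries (log2 -2.20, adjusted p = 0.000733). The untested gene fbxa-112 (16947158 to 16948111), with 1 count against 18, lies within the span of fbxa-111 on the same strand. Reads in their overlap may not be assignable, so both counts are uncertain. Of 255 F-box genes tested, edgeR called only fbxa-192 and fbxa-111, beside 0.266% of all genes called lower. DESeq2 called 4, beside 150 over all genes. At an unadjusted p under 0.05, 26 of the 255 were lower and 2 higher, beside 5.38% and 3.09% of all genes. The median log2 change over the family was -0.20, beside -0.02 for all genes.

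Y102A5C.36 (V, 16926922 to 16927445), the nearest tested gene to the left of fbxa-111, had 0.488, 0.541, 0.331, 0.668 and 0.524 CPM in the fndc-1 mutant. It had 14.1, 18.8, 13.9, 15.0 and 12.2 CPM in the double mutant and 8.01, 7.73, 7.50, 8.06 and 7.09 CPM in wild type. The 3 strains did not overlap (log2 -4.45, adjusted p = 3.249e-07 against both), and the double mutant also exceeded wild type (log2 0.95, adjusted p = 0.002204). On chromosome IV, C08F11.7 (13637275 to 13638666) had 0.631, 1.06, 0.704, 0.932 and 1.09 CPM in the fndc-1 mutant. It had 8.98 to 10.6 CPM in the double mutant and 9.18 to 11.3 CPM in wild type (log2 -3.53, SE 0.146, adjusted p = 5.289e-10). Its neighbours on either side, the F-box gene fbxa-98 and the glucuronosyltransferase gene ugt-22, were not called (log2 -0.26 and -0.02).

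On chromosome III, the neighbouring genes K10G9.2 and pad-2 were higher. K10G9.2 (III, 10285923 to 10288621) had 9.30, 9.16, 10.3, 10.8 and 11.9 CPM in the fndc-1 mutant. It had 2.18, 2.95, 2.26, 3.14 and 3.13 CPM in the double mutant and 2.71, 2.66, 2.38, 2.61 and 2.53 CPM in wild type. The groups did not overlap (log2 1.95, SE 0.108, adjusted p = 1.098e-08). The gene just before it, pad-2 (10279126 to 10281575), a protein O-fucosyltransferase, had 9.86 to 11.04 CPM in the fndc-1 mutant, 5.43 to 6.37 CPM in the double mutant and 5.14 to 7.20 CPM in wild type (log2 0.77, adjusted p = 0.0002372). The genes on the outer sides of that pair, cnk-1 and vglu-2, were not called (log2 0.10 and -0.12).

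The synaptotagmin gene snt-2 (III, 786070 to 793733), of a family of calcium sensors for vesicle release, had 34.6, 37.5, 35.8, 36.2 and 41.4 CPM in the fndc-1 mutant. It had 12.1 to 20.1 CPM in the double mutant and 17.2 to 19.7 CPM in wild type (log2 1.04, adjusted p = 9.986e-06). The T-box transcription factor gene tbx-2 (III, 5130923 to 5136296), known for its role in pharyngeal muscle, had 12.3 to 18.6 CPM in the fndc-1 mutant, 6.27 to 9.46 CPM in the double mutant and 5.82 to 10.1 CPM in wild type (log2 1.03, adjusted p = 0.0003661). Neither gene overlapped between the fndc-1 mutant and the others. Of the 6 pharynx markers 0 were called by edgeR, DESeq2 or limma-voom, and 0 had an unadjusted p under 0.05. All 6 had a negative log2 change, from -0.43 to -0.20 with a median of -0.39, beside -0.02 for all genes. Their summed level was 50.4 to 67.5 CPM in the fndc-1 mutant, 44.1 to 106.5 CPM in the double mutant and 66.7 to 98.7 CPM in wild type.

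Both metallothionein genes, which encode small cysteine-rich proteins that bind zinc and cadmium and are known targets of insulin signalling through DAF-16, were lower in the fndc-1 mutant. mtl-1 (V, 6691371 to 6691863) had 4.27, 5.27, 4.201, 4.24 and 3.82 CPM in the fndc-1 mutant. It had 11.5, 12.2, 12.02, 16.06 and 12.3 CPM in the double mutant and 28.4, 38.8, 15.1, 52.3 and 20.6 CPM in wild type. The fndc-1 libraries lay below all others, and the double mutant and wild type overlapped only where wild-type library 3 fell below double mutant library 4.

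Against both strains pooled the log2 change of mtl-1 was -2.33 (SE 0.395, adjusted p = 0.00752). It was -1.55 against the double mutant (adjusted p = 0.006575) and -2.83 against wild type (adjusted p = 2.452e-05). The double mutant was itself below wild type (log2 -1.28, adjusted p = 0.01118). Wild-type libraries 2 and 4, which had the most mtl-1, were also those with high sperm markers; without them the pooled log2 change was -1.87 (adjusted p = 0.0007559). Without fndc-1 libraries 4 and 5 the change was -2.23 and no longer called (adjusted p = 0.1001).

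mtl-2 (V, 14018270 to 14018673) had 154.2, 157.7, 152.4, 165.2 and 143.0 CPM in the fndc-1 mutant. It had 232.8, 328.3, 217.3, 187.7 and 272.3 CPM in the double mutant and 298.7, 266.4, 210.2, 300.2 and 223.9 CPM in wild type. The fndc-1 libraries did not overlap the others, and the double mutant and wild type overlapped (log2 -0.72, SE 0.122, adjusted p = 0.007552). The log2 change was -0.68 against the double mutant (adjusted p = 0.0259) and -0.75 against wild type (adjusted p = 0.01068). mtl-2 no longer passed when library 2 of the fndc-1 mutant was left out (adjusted p = 0.05736), nor without library 5 (adjusted p = 0.05602), without libraries 4 and 5 together (adjusted p = 0.1057) or without wild-type libraries 2 and 4 (adjusted p = 0.0545). In bulk RNA of whole worms, fewer cells of a type and less RNA per cell cannot be told apart.

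**Figure D4:**
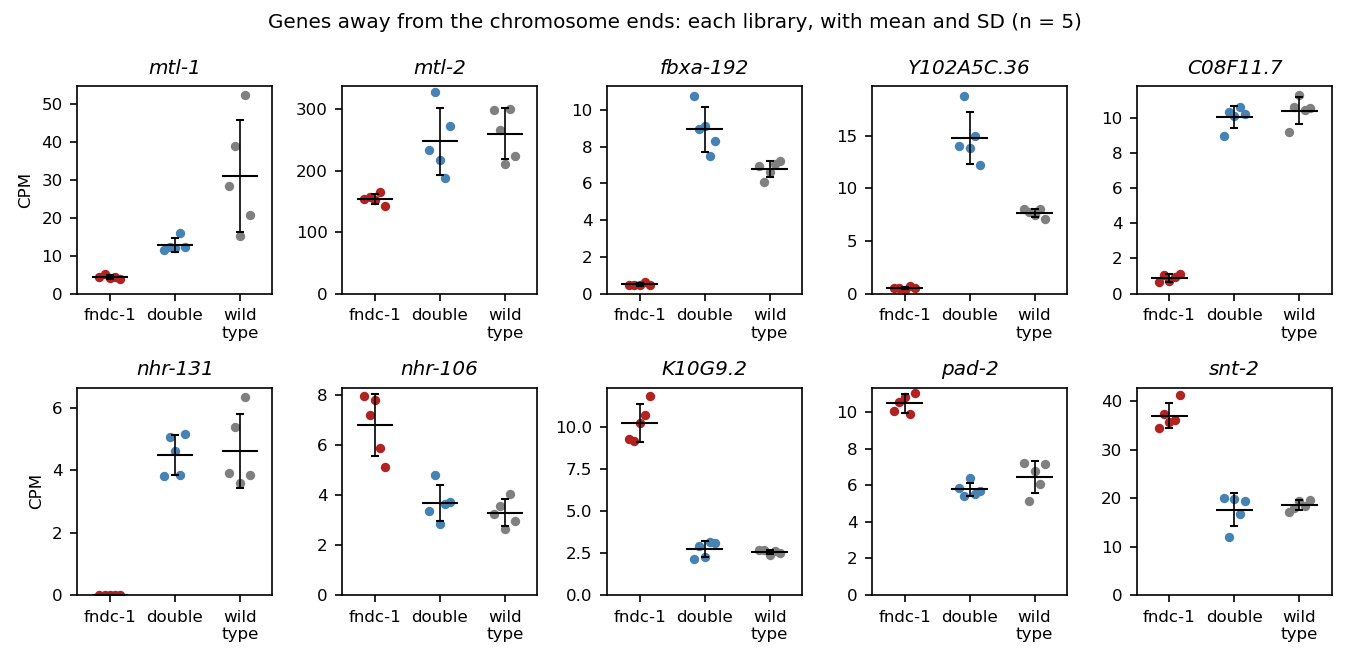
Level in CPM of 10 genes away from both chromosome ends in each library of the fndc-1 mutant (red, left), the double mutant (blue) and wild type (grey, right); each point is 1 library, and lines give the mean and SD of 5. In every panel the fndc-1 libraries lie wholly below (mtl-1, mtl-2, fbxa-192, Y102A5C.36, C08F11.7 and nhr-131) or wholly above (nhr-106, K10G9.2, pad-2 and snt-2) the other 10. The rules by which these genes were named required such separation.

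The neighbouring genes bath-1 and bath-21 on chromosome II (2027612 to 2028812 and 2014902 to 2026625), which encode BTB and MATH domain proteins of the kind that link substrates to ubiquitin ligases, were lower by small amounts. bath-1 had 7.06 to 8.60 CPM in the fndc-1 mutant, 10.4 to 12.2 CPM in the double mutant and 9.72 to 11.04 CPM in wild type, with no overlap (log2 -0.45, adjusted p = 0.01429). bath-21 had 1.81 to 2.36 CPM in the fndc-1 mutant, 3.41 to 4.50 CPM in the double mutant and 2.81 to 3.18 CPM in wild type (log2 -0.70, adjusted p = 0.03767). Among 58 tested MATH and BATH genes edgeR called only this pair, beside 0.266% of all genes called lower, and DESeq2 called 3. At an unadjusted p under 0.05, 6 of the 58 were lower and 1 higher, beside 5.38% and 3.09% of all genes. The call of bath-21 was lost under 14 of the 27 alternatives and that of bath-1 under 8. Both were lost with upper-quartile scaling (adjusted p = 0.09434 for bath-1 and 0.1002 for bath-21), with the replicate block (adjusted p = 0.06305 and 0.1428) and without wild-type libraries 2 and 4 (adjusted p = 0.07307 and 0.05454). They were also lost without fndc-1 libraries 4 and 5 (adjusted p = 0.07684 and 0.1323) and without fndc-1 library 1, 2, 3 or 5 alone, and bath-21 also without library 4.

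Outside both chromosome ends, the 35 genes included 5 pairs with at most 1 tested gene between them: bath-21 with bath-1, pad-2 with K10G9.2, nhr-106 with nhr-131, Y102A5C.36 with fbxa-111, and F40D4.17 with F40D4.13. In all of these but the nuclear receptor pair, both genes moved the same way. Of the 35 genes, 20 kept their call under every alternative that gave them a value, as did 16 of the 18 genes on X and 12 of the 14 on I.

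At an unadjusted p under 0.05, 1272 of the 15032 genes (8.46%) differed between the fndc-1 mutant and both other strains, 464 higher (3.09%) and 808 lower (5.38%), and the counts at that threshold below stand beside these shares. Among 19 tested genes of the mitochondrial unfolded protein response, edgeR and limma-voom called 0 and DESeq2 1, and 2 were lower at an unadjusted p under 0.05. Their median log2 change was -0.09, beside -0.02 for all genes. Among 18 genes of mitophagy and mitochondrial dynamics other than fndc-1, all 3 tools called 0, and 0 had an unadjusted p under 0.05. Their log2 changes ranged from -0.37 to 0.11.

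Of 12 protein genes of the mitochondrial genome, edgeR and limma-voom called 0 and DESeq2 1. At an unadjusted p under 0.05, 8 of the 12 were lower and 1 was higher in the fndc-1 mutant, and the median log2 change was -0.35. Their summed level was 2489 to 3190 CPM in the fndc-1 mutant, 2928 to 3821 CPM in the double mutant and 2973 to 4297 CPM in wild type, so the groups overlapped. Of 28 genes of insulin signalling and DAF-16 targets, edgeR called mtl-1 and mtl-2 lower and 0 higher, beside 0.266% of all genes called lower. DESeq2 called 4, beside 150 over all genes. At an unadjusted p under 0.05, 6 were lower and 2 higher, and the median log2 change was -0.17. Among 28 autophagy genes all 3 tools called 0, with 1 lower at an unadjusted p under 0.05.

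Families of detoxification held no gene called by edgeR against both strains. Among 64 cytochrome P450 genes edgeR and limma-voom called 0 and DESeq2 1; at an unadjusted p under 0.05, 14 were lower and 2 higher, and the median log2 change was -0.23, beside -0.02 for all genes. Against wild type alone 6 P450 genes were lower, and against the double mutant alone 1 was higher. All 3 tools called 0 of 62 UDP-glucuronosyltransferases and 0 of 41 glutathione S-transferases, with 3 of each family at an unadjusted p under 0.05. Of 154 cuticle collagens all 3 tools called 0, with 13 lower at an unadjusted p under 0.05 and a median log2 change of -0.62. The summed collagen level lay between the other strains, at 23070 to 25860 CPM in the fndc-1 mutant, 29930 to 44770 CPM in the double mutant and 14070 to 22530 CPM in wild type.

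Markers of tissues were not called in the pooled comparison. All 3 tools called 0 of 39 sperm, 12 oocyte and eggshell, 8 germline, 11 intestine, 8 body wall muscle, 8 hypodermis and seam and 9 neuron markers. At an unadjusted p under 0.05 there were 2 lower among the oocyte and eggshell markers, 1 lower among the hypodermis and seam markers and 2 lower among the neuron markers. Summed sperm markers were 128.6 to 589.5 CPM in the fndc-1 mutant, 236.8 to 1174 CPM in the double mutant and 53.6 to 392 CPM in wild type, with no marker of this list at a called difference.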

How the data were processed

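RNA of 15 libraries was measured, and the deposited file gives raw read counts of the authors for every gene and library, without scaling. Submitters' processing notes name Trimmomatic 0.36, STAR 2.6.0c, Subread 1.6.1, featureCounts and the build WBcel235. Strand setting, annotation release and treatment of reads with several matches: not given in the sources used here. Positions were taken from the Ensembl release 115 annotation of WBcel235, which matched 19946 of 20191 genes and left 245 without a position.

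Genes were kept by filterByExpr with the 3 strains as groups, which left 15032, and library sizes were scaled by TMM factors. Differences were tested two-sided with edgeR 4.0.16 in R 4.3.3 (glmQLFit and glmQLFTest, the quasi-likelihood F-test), with the 5 fndc-1 libraries against the other 10 as one group, and separately against each strain from a fit of 3 strain means. P-values of both were adjusted by Benjamini-Hochberg over the 15032 genes, and a gene was called under 0.05; 1272 genes had an unadjusted p under 0.05. A standard error is the size of the log2 change divided by the square root of F. The test was also run on simulated data with known changes.

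A chi-square of counts between libraries of 1 strain was 8.07 per gene at its lowest, so none repeated another. Replicate numbers did not consistently pair the libraries.

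A window of 500 kb counted as a cluster when it held at least 5 genes called and these were at least 15% of its tested genes. Named were fndc-1 with atfs-1 and the chaperones hsp-6 and hsp-60; the called genes with the largest changes, non-overlapping libraries and at least 5 CPM (10 per direction with a gene symbol, 4 with a sequence name); all lost or gained genes; up to 12 called genes in each cluster window; and up to 3 called members of a list. Other genes were named after their values were seen. The gene lists and their members were chosen with earlier results of these data known. Alternatives were RLE and upper-quartile scaling, DESeq2 1.42.0, limma-voom (limma 3.58.1), other filters, a mean of 3 strain means, the replicate block, a sperm score as covariate, windows of 250 and 1000 kb, and leaving out libraries singly or in pairs. Counts of genes with non-overlapping libraries and of lost genes under alternatives, and the fit without both chromosome ends, were added after seeing the data. All 15 columns were used. Intervals and floors cover counting error only.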

Additional observations from a re-analysis of the deposited data

Results flagged for a closer look

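For the 43 named genes, the highest or lowest library of each strain was set against the others of that strain. Groups with 0 in all 5 libraries could not stand apart, and values of different genes in 1 library are not independent, so no chance rate is given. Of 129 groups, 12 stood apart, with a gap to the nearest other library of 0.7374 to 1 of the strain's range. Of these, 8 were double mutant library 2. It had 319.3 CPM of hsp-6 (856.7 to 1048 CPM in the other double mutant libraries) and 265.7 CPM of hsp-60 (526.1 to 617.9 CPM). In the left end of X it had 8.884 CPM of Y73B3A.4 (22.07 to 26.67 CPM), 1.639 CPM of T08D2.8 (6.157 to 7.517 CPM) and 0.2588 CPM of T08D2.1 (2.805 to 2.987 CPM). It was high for cyn-5 (505.9 CPM, against 355 to 392.7 CPM), F33H2.6 (61.65 CPM, against 45.91 to 49.96 CPM) and fndc-1 (10.16 CPM, against 7.038 to 7.817 CPM).

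Double mutant library 4 had 16.06 CPM of mtl-1, where the other double mutant libraries had 11.49 to 12.25 CPM. Wild-type library 2 had 92.39 CPM of zipt-1, where the other wild-type libraries had 101.7 to 104.5 CPM. In the fndc-1 mutant, library 4 had 0.6504 CPM of fbxa-192 (0.441 to 0.4678 CPM in the others), and library 1 held the 1 read of T08D2.1 (0.02034 CPM, 0 in the others). The fndc-1 mutant did not overlap the other strains for cyn-5, F33H2.6, fbxa-192, mtl-1, zipt-1, Y73B3A.4 or T08D2.8. These genes were named by a rule that required libraries without overlap, so that outcome was set by the choice. T08D2.1 was named as a called gene of a cluster window, without that requirement, and its fndc-1 libraries also lay below all others.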

How the results depend on the processing

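The 2 cluster windows were found under every alternative. The pooled count of 67 was 150 with DESeq2 (63 higher, 87 lower), 103 with a mean of 3 strain means (41 and 62) and 154 without double mutant libraries 2 and 4 (53 and 101), and 53 to 94 without any 1 library (higher 22 to 37, lower 31 to 57). It was 53 without fndc-1 library 2 and 94 without double mutant library 2. The 35 genes away from both ends numbered 117 with DESeq2, 71 with 3 strain means, 59 with the sperm covariate, 23 with the replicate block, 120 without double mutant libraries 2 and 4, 23 without wild-type libraries 2 and 4, and 27 when the genes of both ends were left out of the fit. Without any 1 library they numbered 21 (fndc-1 library 2) to 60 (double mutant library 2), with 23 without fndc-1 library 1 and 53 without double mutant library 4. The left end of X held 11 with a filter of 1 CPM in 5 libraries, which leaves 7 of its genes untested, and 18 to 19 without any 1 library. The right end of I held 13 to 16, and the windows stayed at 2.

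Genes differing from each strain numbered 50 to 73 without any 1 library (higher 19 to 27, lower 31 to 46), and 38 were higher with DESeq2. With double mutant libraries 2 and 4 left out, 95 genes had all fndc-1 libraries above and 181 all below the others. Leaving out fndc-1 libraries 4 and 5 gave 540 above and 203 below. Without any 1 library they were 54 to 95 (highest without wild-type library 5) and 67 to 150 (without double mutant library 4; 115 without fndc-1 library 4). Lost genes numbered 10 to 12, and gained genes 0, or 1 without fndc-1 libraries 4 and 5. Values were recomputed for the named genes, every gene called in the pooled comparison, ces-2, pole-1, dog-1, F31C3.3 and ins-19. Of these 2037 values, 1847 kept direction and side, 174 lost a call and 14 gained one. Direction turned for atfs-1 without double mutant libraries 2 and 4 (log2 -0.018) and for hsp-60 without fndc-1 libraries 4 and 5 (log2 -0.0099). Why a count or call changed under an alternative was not tested.

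Replicate numbers did not consistently pair the libraries. Of 15 correlations of same-numbered libraries, 7 exceeded 0.1 (range -0.59 to 0.66), and 1 of 10 fndc-1 comparisons was highest at its own number. Number 4 was positive throughout: 0.66 (fndc-1 mutant with double mutant), 0.43 (fndc-1 mutant with wild type) and 0.54 (double mutant with wild type). Number 3 was too (0.06, 0.19 and 0.43 in the same order), and numbers 1, 2 and 5 were mixed in sign. With the replicate block, 53 genes were called, 17 on X and 13 on I.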

Other observations

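A group of genes had its lowest level in the fndc-1 mutant and differed between the other strains too. F07B7.2 on chromosome V averaged 0.598 ± 0.305 CPM in the fndc-1 mutant, 7.16 ± 0.782 CPM in the double mutant and 1.44 ± 0.293 CPM in wild type (SD, n = 5 each). It was the 1 gene that passed against each strain (log2 -3.57 and -1.26, adjusted p = 2.497e-06 and 0.02785, against the double mutant and wild type) and missed the pooled threshold (adjusted p = 0.06671). C07G1.7 on chromosome IV had 3 counts in the fndc-1 mutant, at 0.0115 ± 0.0105 CPM, and averaged 0.878 ± 0.215 CPM in the double mutant and 0.145 ± 0.0503 CPM in wild type (pooled adjusted p = 0.01285). Its call was lost with the replicate block (adjusted p = 0.09984), with limma-voom (adjusted p = 0.05155), without fndc-1 libraries 4 and 5 (adjusted p = 0.1007) and without fndc-1 library 2 or 3 (adjusted p = 0.05864 and 0.0544). The pseudogene W06A11.4 ran the other way between the other strains, with 1.42 to 2.31 CPM in the fndc-1 mutant, 2.95 to 3.94 CPM in the double mutant and 6.97 to 10.01 CPM in wild type (pooled log2 -1.54, adjusted p = 0.04252). Its call was lost under 14 of the 27 alternatives, among them the replicate block (adjusted p = 0.166), limma-voom (adjusted p = 0.1519) and leaving out any 1 fndc-1 or any 1 wild-type library. These genes were named after their values were seen.

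On the right arm of chromosome V, the 3 windows from 16500001 to 18000000, chosen after their values were seen, held 8 genes called among 131 tested (6.11%), 7 of them lower in the fndc-1 mutant and 1 higher. They include fbxa-192, fbxa-111 and Y102A5C.36. Among rises away from the end of I, Y34F4.3 on chromosome III averaged 0.896 ± 0.183 CPM in the fndc-1 mutant, 0.113 ± 0.0758 CPM in the double mutant and 0.166 ± 0.0900 CPM in wild type (log2 2.67, adjusted p = 0.0006509). W03A5.2 on the same chromosome averaged 4.77 ± 0.461, 2.05 ± 0.484 and 1.81 ± 0.110 CPM in the fndc-1 mutant, the double mutant and wild type (log2 1.30, adjusted p = 2.2e-05). The insulin-like gene ins-19 met the rule for a gained gene without fndc-1 libraries 4 and 5. Over all 5 fndc-1 libraries its log2 change was 2.91 and not called by edgeR (adjusted p = 0.2048), though it passed with DESeq2 (adjusted p = 0.03115). Without fndc-1 libraries 4 and 5 it was 3.63 (adjusted p = 0.01746).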
